A study of Mus musculus with 12 samples.

Results

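Breakdown of the branched-chain amino acids leucine, isoleucine and valine was followed through 10 genes: Bcat2, Bckdha, Bckdhb, Dbt, Bckdk, Ivd, Mccc1, Mccc2, Pcca and Pccb. They were taken by symbol from a deposited table of 11022 genes, which held all 10. In this mitochondrial pathway a transaminase removes the amino group, and the branched-chain ketoacid dehydrogenase complex then commits the carbon skeleton to oxidation. A kinase inactivates that complex and a phosphatase reactivates it. The leucine arm ends in acetyl-CoA and ketone bodies, while the valine and isoleucine arms pass through propionyl-CoA. In fat cells the pathway is known to become active during adipocyte differentiation and to feed carbon into fatty acids.

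The cells were 3T3-L1, an established mouse preadipocyte line that turns into lipid-storing adipocytes when given hormonal inducers. All sequenced cells were labelled wild-type, and all media were DMEM with sodium pyruvate and penicillin/streptomycin. The 12 libraries formed 4 groups of 3. Undifferentiated preadipocytes were kept in 10% calf serum. Regularly differentiated cells, labelled white adipocytes, were induced after confluence in 10% fetal bovine serum with rosiglitazone (2 µM), dexamethasone (1 µM), insulin (1 µg/mL) and 3-isobutyl-1-methylxanthine (0.5 mM). After 2 days they received insulin alone for 2 days and then maintenance medium, so serum type changed together with differentiation. The last groups, labelled cancer-conditioned adipocytes, went through the same steps in a mixture of equal parts of each medium and filtered conditioned medium (CM) from WEP breast cancer cells. The WEP cells were p53 wild-type for WT CM and p53 knockout for KO CM. The knockout was therefore in the cells that conditioned the medium and not in the cells sequenced. Mixing lowered the inducer doses equally for WT CM and KO CM but left them whole for regular cells, so conditioned medium and dilution cannot be told apart in comparisons with regular cells. Whether the 3 replicates were grown as separate cultures is not stated in the labels. The p-values below therefore cover the variation among these libraries, possibly technical, and nothing wider.

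The libraries held between 987496 and 2589045 molecule counts (UMIs, which count each captured transcript 1 time whatever its number of PCR copies). The adipocyte markers (12 of 12 in the table) summed to 149.5 to 182 CPM (counts scaled to library size) in undifferentiated, 32753 to 34877 in regular, 20659 to 20815 in WT CM and 10223 to 11671 in KO CM libraries. Retn was at 0 in 2 undifferentiated libraries, and Plin1 and Slc2a4 in 1 each. The preadipocyte and fibroblast markers (10 of 10 in the table) summed to 13626 to 14828, 7279 to 7346, 15345 to 15796 and 18610 to 19965 CPM in the same order of groups, with Cd34 at 0 in all 3 WT CM libraries. Of the macrophage markers, Csf1r, Cd68 and Lyz2 were in the table and summed to 8.32 to 18.8 CPM over all libraries. Of the 6 markers of epithelial cells looked up (Epcam, Cdh1, Krt5, Krt14, Cldn3 and Cldn4), 0 were in the table, so their levels could not be read. WT CM replicate 3 stood apart from its replicates, at a chi-square of 5.54 and 5.24 per degree of freedom over all genes, where the other pairs within a group lay between 1.38 and 2.54. In bulk RNA, fewer cells of a type and less RNA per cell cannot be told apart, and the part of cell type composition in the values below was not tested.

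The means of 9 of the 10 genes followed the same course through the groups. Together the 10 genes summed to 216 ± 11.8 CPM (mean ± SD, n = 3 here and throughout) in undifferentiated cells and to 1122 ± 21.3 CPM after regular differentiation. They stood at 616 ± 31.6 CPM with WT CM and at 388 ± 8.35 CPM with KO CM. For 9 genes the mean was lowest in undifferentiated cells, next in KO CM, then in WT CM and highest in regular cells. The exception was the kinase gene Bckdk, whose mean was lowest in KO CM. How many of all genes in the table had the order of the 9 was not counted. It was not particular to them, since Hadh, Idh3b, Etfb, Alas1 and Idh3a, described below for their likeness, had it too. The adipocyte marker sum given above had the same order of groups, the preadipocyte marker sum was lowest in regular and highest in KO CM cells, and the part of either in the order of the pathway genes was not tested. Single preadipocyte markers went both ways against undifferentiated cells. Of 9 tested, 5 were higher and 2 lower with KO CM (26% and 17.7% of all genes). With WT CM 4 were higher and 3 lower (27.9% and 20.7%). From undifferentiated to KO CM cells mean Vim went from 5271 to 9063 CPM and mean Fn1 from 4073 to 3240 CPM.

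**Figure D1:**
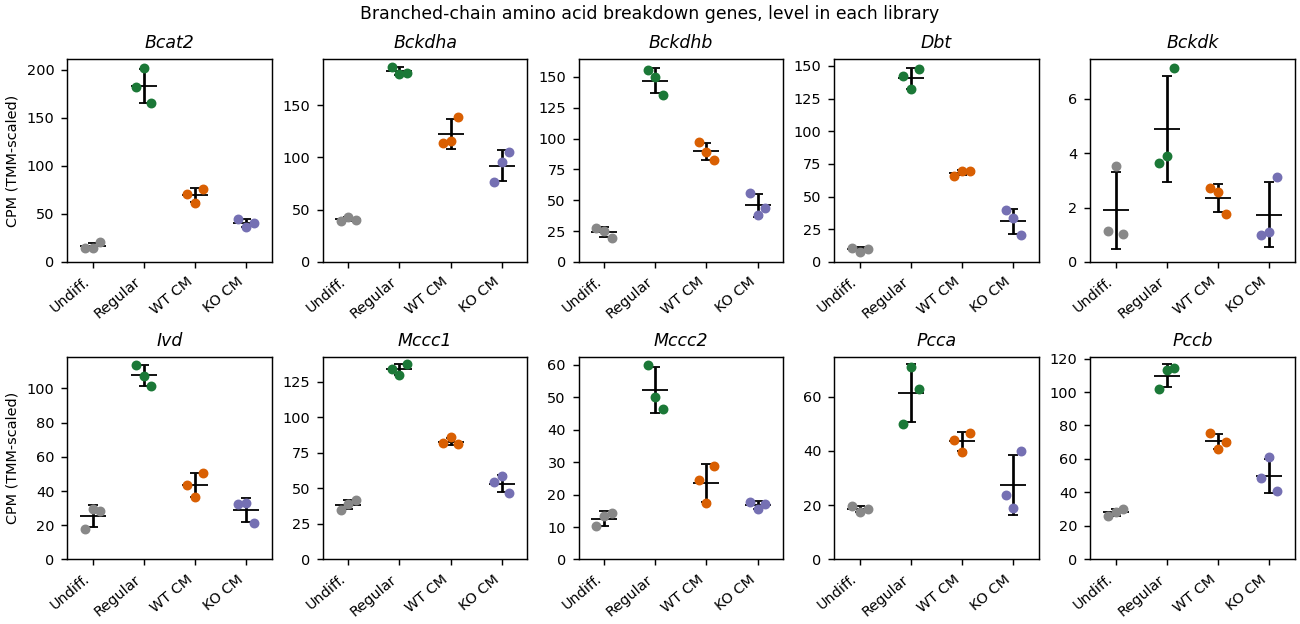
Level of each of the 10 genes in CPM on TMM-scaled library sizes (vertical axes, each starting at 0 and scaled separately) by group, with a point for each library and bars for the mean ± SD of 3 libraries. The regular libraries lie above all other libraries for every gene, by a narrow margin for Bckdk. The CM libraries lie between them and the undifferentiated libraries for most genes.

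Bcat2 encodes the mitochondrial branched-chain aminotransferase, the entry step (GRCm38, chromosome 7, 45570153 to 45589711, plus strand). It was at 14.7, 14.1 and 20.5 CPM in the undifferentiated libraries and at 182, 202 and 166 CPM in the regular libraries. The WT CM libraries held 70.6, 61.6 and 76.4 CPM, and those of KO CM 44.4, 36.6 and 40.6 CPM. The 4 groups did not overlap at any point. Bcat2 rose 11-fold on regular differentiation (log2 fold change 3.46 ± 0.15 SE, edgeR adjusted p = 1.47e-24). It was lower with WT CM than in regular cells (-1.39 ± 0.11, adjusted p = 7.76e-14), and lower again with KO CM than with WT CM (-0.78 ± 0.16, adjusted p = 0.000287). Bcat1, the cytosolic form of the enzyme, went the other way on few molecules: 13, 11 and 13 UMIs in undifferentiated libraries against 1, 0 and 2 in regular libraries. Pooled over libraries, Bcat1 was 12.9-fold higher in undifferentiated cells, with an exact 95% interval of 4.07 to 65.2 that covers counting error only (edgeR adjusted p = 3.19e-05). In WT CM libraries it had 4, 1 and 7 UMIs and in KO CM libraries 4, 0 and 2, and neither group passed the test against regular cells (adjusted p = 0.107 and 0.216).

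Klf15, a transcription factor known to activate Bcat2 in mouse muscle, had 1 UMI over the 3 undifferentiated libraries. It reached 219, 222 and 208 CPM in regular libraries, 71.3, 82.1 and 80.8 CPM in WT CM libraries and 37.5, 36.6 and 43.0 CPM in KO CM libraries. No 2 groups overlapped. Klf15 was lower with WT CM than in regular cells (-1.47 ± 0.10, edgeR adjusted p = 8.9e-16) and lower with KO CM than with WT CM (-0.99 ± 0.15, adjusted p = 2.19e-06).

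The ketoacid dehydrogenase complex is built from an E1 component, encoded by Bckdha and Bckdhb, an E2 core, encoded by Dbt, and an E3 component, encoded by Dld and shared with other dehydrogenases. Dbt (chromosome 3, 116513070 to 116549981, plus strand) had the largest fold rise of the 9 tested genes. It was at 10.7, 7.76 and 10.2 CPM in undifferentiated libraries, 142, 132 and 147 CPM in regular libraries, 65.8, 69.2 and 69.3 CPM in WT CM libraries and 39.5, 33.3 and 20.3 CPM in KO CM libraries. All 4 groups were separate, and the KO CM libraries were the most spread. It rose 14.3-fold on regular differentiation (3.84 ± 0.18, edgeR adjusted p = 3.91e-23). It was lower in both CM groups than in regular cells, by log2 fold changes of -1.03 ± 0.13 and -2.21 ± 0.16, and its difference of KO CM from WT CM was the largest among the 9 tested genes (-1.17 ± 0.18, adjusted p = 2.66e-06).

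The E1 genes moved less. Bckdhb (chromosome 9, 83925145 to 84124240, plus strand) was at 27.7, 25.4 and 19.4 CPM in undifferentiated, 156, 150.2 and 135 CPM in regular, 97.1, 89.1 and 82.9 CPM in WT CM and 56.2, 37.7 and 43.8 CPM in KO CM libraries. Its groups did not overlap either. It rose 6.10-fold on regular differentiation and was lower with KO CM than with WT CM by -0.95 ± 0.15 (edgeR adjusted p = 5.86e-06). Bckdha (chromosome 7, 25629946 to 25658981, minus strand) was at 39.6, 43.0 and 40.4 CPM in undifferentiated, 187, 179 and 181 CPM in regular, 113, 115 and 139 CPM in WT CM and 76.0, 95.3 and 105 CPM in KO CM libraries. The highest KO CM library lay just under the lowest WT CM library. Bckdha rose 4.44-fold on regular differentiation and differed between the CM groups by -0.42 ± 0.12 (adjusted p = 0.0134). The 3′ end of Bckdha is overlapped on the other strand by B3gnt8, and reads of the pair cannot be separated because no source used here says whether counting used strand. B3gnt8 itself was not among the genes of the table. Dld was at 129 ± 27.0, 312 ± 22.9, 207 ± 17.4 and 132 ± 12.6 CPM in undifferentiated, regular, WT CM and KO CM cells, and its KO CM level did not pass the test against undifferentiated cells (0.03 ± 0.12, adjusted p = 0.84).

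The regulators of the complex were measured on few molecules. Bckdk, the kinase that inactivates the complex (chromosome 7, 127904082 to 127910221, plus strand), had 2, 5 and 2 UMIs in undifferentiated, 4, 10 and 12 in regular, 4, 4 and 4 in WT CM and 1, 1 and 4 in KO CM libraries. It was the member that did not pass the filter on low counts. Without that filter it was 1.37 ± 0.59 higher on the log2 scale in regular than in undifferentiated cells (edgeR adjusted p = 0.0451). The authors' deposited DESeq2 values did not call it there (1.42, adjusted p = 0.126). In edgeR without the filter it passed the test in none of the other comparisons, where adjusted p lay between 0.104 and 0.988. Ppm1k, the phosphatase that reactivates the complex, had 4, 2 and 6 UMIs in undifferentiated and 9, 23 and 11 in regular libraries. It rose on regular differentiation (1.74 ± 0.47, adjusted p = 0.0015), and no difference was detected at this depth between either CM group and regular cells (-0.74 ± 0.40 with WT CM and -0.41 ± 0.43 with KO CM, adjusted p = 0.163 and 0.471).

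In the leucine arm, Ivd encodes isovaleryl-CoA dehydrogenase (chromosome 2, 118861954 to 118882909, plus strand). It was at 18.1, 29.6 and 28.1 CPM in undifferentiated, 114, 108 and 102 CPM in regular, 43.4, 36.5 and 50.5 CPM in WT CM and 32.6, 33.3 and 21.1 CPM in KO CM libraries. The KO CM libraries overlapped the undifferentiated libraries and lay under all WT CM libraries. Ivd rose 4.26-fold on regular differentiation (2.09 ± 0.16, edgeR adjusted p = 4.69e-15) and was lower with WT CM than in regular cells (-1.28 ± 0.15, adjusted p = 1.46e-09). Its KO CM level did not pass the test against undifferentiated cells (0.17 ± 0.22, adjusted p = 0.559), a value whose sign turned when libraries were scaled by total counts (-0.10) or when undifferentiated replicate 1 was left out (-0.09).

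Mccc1 and Mccc2 encode the alpha and beta subunits of methylcrotonyl-CoA carboxylase, the next enzyme of the arm. Mccc1 (chromosome 3, 35959312 to 36000678, minus strand) was at 35.0 to 42.0 CPM in undifferentiated, 129.7 to 137 CPM in regular, 81.2 to 85.9 CPM in WT CM and 46.9 to 58.7 CPM in KO CM libraries, with no overlap between groups. Mccc2 (chromosome 13, 99948530 to 100015639, minus strand) was at 10.2, 13.4 and 14.3 CPM in undifferentiated, 60.1, 50.1 and 46.3 CPM in regular, 24.4, 17.3 and 29.0 CPM in WT CM and 17.8, 15.5 and 17.2 CPM in KO CM libraries. For Mccc2 the lowest WT CM library fell within the range of the KO CM libraries. Mccc1 and Mccc2 rose 3.44-fold and 4.05-fold on regular differentiation and were lower with WT CM than in regular cells (-0.69 ± 0.11 and -1.09 ± 0.18, edgeR adjusted p = 1.5e-06 and 3.89e-06). Between KO CM and WT CM, Mccc1 was lower (-0.65 ± 0.14, adjusted p = 0.000589), and Mccc2 did not pass the test (-0.51 ± 0.25, adjusted p = 0.194). The 3′ end of Mccc1 is overlapped by the antisense gene Gm15952, whose reads cannot be separated without strand and which was not among the genes of the table.

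Pcca and Pccb encode the alpha and beta subunits of propionyl-CoA carboxylase, which takes up the product of the valine and isoleucine arms. Pccb (chromosome 9, 100982032 to 101034898, minus strand) was at 26.0 to 30.2 CPM in undifferentiated, 102 to 114 CPM in regular, 66.0 to 75.3 CPM in WT CM and 40.6 to 61.0 CPM in KO CM libraries, again without overlap. Pcca (chromosome 14, 122534324 to 122891100, plus strand) was at 19.8, 17.6 and 18.4 CPM in undifferentiated, 50.1, 71.0 and 63.0 CPM in regular, 44.1, 39.8 and 46.5 CPM in WT CM and 23.7, 18.8 and 39.8 CPM in KO CM libraries. KO CM replicate 3 reached the WT CM range and KO CM replicate 2 lay among the undifferentiated libraries. Pcca and Pccb rose 3.36-fold and 3.91-fold on regular differentiation. Pcca had the smallest fall of the 9 tested genes with WT CM against regular cells (-0.52 ± 0.17, edgeR adjusted p = 0.0118), and Pccb also fell there (-0.65 ± 0.12, adjusted p = 3.74e-05). The 3′ end of Pcca is overlapped on the other strand by Ggact, which itself had 23, 18, 17 and 9 UMIs summed over undifferentiated, regular, WT CM and KO CM libraries.

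Promoters were set side by side because the tested genes moved together. RefSeq windows of 300 bases (250 before to 50 after the start, GRCm38.p6) were at hand for 9 of the 10 genes: Bckdk, which was not tested, and the tested genes other than Dbt. The windows shown are that of Bcat2, which fell most with WT CM, and the 4 with the most matches. Capitals mark matches to 3 motifs or their reverse complements: the CCAAT box (CCAAT), the GC box (GGGCGG) and the E-box (CACGTG).
Bcat2, chr7:45569903-45570202, plus strand: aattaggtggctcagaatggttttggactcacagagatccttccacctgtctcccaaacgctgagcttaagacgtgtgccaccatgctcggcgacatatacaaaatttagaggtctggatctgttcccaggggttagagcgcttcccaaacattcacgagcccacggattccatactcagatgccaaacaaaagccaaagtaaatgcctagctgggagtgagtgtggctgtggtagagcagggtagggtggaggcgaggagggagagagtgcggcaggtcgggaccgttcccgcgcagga
Bckdhb, chr9:83924887-83925186, plus strand: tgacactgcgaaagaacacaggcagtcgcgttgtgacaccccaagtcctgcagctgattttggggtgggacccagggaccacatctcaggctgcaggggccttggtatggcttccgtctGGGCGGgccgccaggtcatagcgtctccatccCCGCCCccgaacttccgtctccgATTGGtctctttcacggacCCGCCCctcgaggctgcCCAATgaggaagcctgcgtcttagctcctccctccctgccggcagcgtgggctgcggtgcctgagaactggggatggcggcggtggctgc
Ivd, chr2:118861744-118862043, plus strand: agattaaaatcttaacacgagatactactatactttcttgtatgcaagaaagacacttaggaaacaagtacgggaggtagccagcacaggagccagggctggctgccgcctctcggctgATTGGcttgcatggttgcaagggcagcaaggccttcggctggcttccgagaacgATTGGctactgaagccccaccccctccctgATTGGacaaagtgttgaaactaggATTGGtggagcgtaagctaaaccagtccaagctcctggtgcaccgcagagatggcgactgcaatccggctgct
Mccc1, chr3:36000629-36000928, minus strand: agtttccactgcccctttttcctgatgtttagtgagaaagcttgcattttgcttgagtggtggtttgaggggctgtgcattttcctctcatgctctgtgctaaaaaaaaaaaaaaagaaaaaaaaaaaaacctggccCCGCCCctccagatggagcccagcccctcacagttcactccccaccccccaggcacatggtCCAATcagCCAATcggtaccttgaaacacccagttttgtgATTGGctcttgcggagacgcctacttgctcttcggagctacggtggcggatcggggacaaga
Mccc2, chr13:100015590-100015889, minus strand: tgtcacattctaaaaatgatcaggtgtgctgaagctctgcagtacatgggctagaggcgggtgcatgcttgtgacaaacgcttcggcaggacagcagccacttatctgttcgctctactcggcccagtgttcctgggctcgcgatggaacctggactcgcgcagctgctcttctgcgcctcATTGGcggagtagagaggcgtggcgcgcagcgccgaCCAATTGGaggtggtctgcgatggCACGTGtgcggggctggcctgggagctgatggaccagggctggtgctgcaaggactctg
The Bcat2 window holds no match and the Bckdhb window 2 CCAAT and 3 GGGCGG matches. The Ivd window holds 4 CCAAT matches, the Mccc1 window 3 and a GGGCGG match, and the Mccc2 window 3, of which a pair on opposite strands overlap, and a CACGTG match. At least 1 CCAAT match was found in 6 of the 9 windows, that of Bckdk among them, against 37.41% of 32851 RefSeq promoter windows of the same length. GGGCGG was found in 3 of 9 against 35.66%, and CACGTG in 1 of 9 against 7.15%. The motif AAGGTCA, bound by estrogen-related receptors, was in none of the 9 and in 4.72% of all windows. These counts describe letters in the windows and not binding.

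Regular differentiation was compared with the undifferentiated state to describe the pathway in adipogenesis without conditioned medium. All 9 tested genes rose, with fold changes from 3.36 (Pcca) to 14.3 (Dbt). Over all 9378 genes tested, 57.6% were called, 29.6% as higher and 28% as lower. The median log2 fold change of the 9 genes was 2.09, beside -0.01 over all genes tested. On TMM-scaled CPM all 10 genes had every regular library above every undifferentiated library, as did 30.5% of all genes in the table. For Bckdk this rested on the scaling, at 3.64 CPM (4 UMIs) in regular replicate 1 against 3.53 CPM (5 UMIs) in undifferentiated replicate 2. Scaling by total counts moved the median of all genes by -0.16 and the calls from 2774 higher and 2630 lower to 2255 and 3330, with all 9 genes still called as higher. The call of each of the 9 held without any 1 library.

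Medium from p53 wild-type WEP cells was compared with regular differentiation. All 9 tested genes fell, by log2 fold changes from -0.52 (Pcca) to -1.39 (Bcat2), where 32.6% of all genes were called, 17.2% as higher and 15.4% as lower. Their median was -0.72, beside 0.01 over all genes tested, and all WT CM libraries lay under all regular libraries for each of the 10, as they did for 19.6% of all genes in the table. Ivd, Mccc2 and Dbt followed Bcat2 in size, and the E1 and propionyl-CoA genes Bckdha, Pccb and Pcca had the smallest values. All 9 genes were also called without WT CM replicate 3. The call of Pcca was lost without regular replicate 2 (-0.39, edgeR adjusted p = 0.147) and without WT CM replicate 2 (-0.47, adjusted p = 0.0515). The authors' deposited table called 8 of the 10 genes lower, and 10.3% of all genes, with Pcca at an adjusted p of 0.0527.

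Medium from p53-knockout WEP cells was compared with regular differentiation in the same way, against the same regular libraries. All 9 tested genes fell, by log2 fold changes from -0.97 ± 0.11 (Bckdha) to -2.21 ± 0.16 (Dbt), where 43.2% of all genes were called, 22.2% as higher and 21% as lower. The median of the 9 was -1.60, beside 0.00 over all genes tested. Bcat2 was 4.52-fold lower, Dbt 4.62-fold, Ivd 3.78-fold and Bckdhb 3.19-fold, and all KO CM libraries lay under all regular libraries for each of the 10 genes, against 24.1% of all genes in the table. The edgeR adjusted p of the 9 genes was at most 4.74e-06 (Pcca). Scaling by total counts moved the calls over all genes from 2080 higher and 1973 lower to 1695 and 2459 and the median by -0.11, with all 9 genes still lower.

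Both conditioned media were compared with each other, which sets p53-knockout against p53 wild-type WEP cells at the same dilution. Of the 9 tested genes, 8 fell further with KO CM, where 12.5% of all genes were called, 5.86% as higher and 6.65% as lower. The median was -0.64, beside 0.01 over all genes tested. Dbt, Bckdhb and Bcat2 had the largest differences, at 2.25-fold, 1.94-fold and 1.72-fold lower, followed by Mccc1, Ivd, Pcca, Pccb and Bckdha. Mccc2 was the tested gene that was not called. In 7 of the 10 genes all KO CM libraries lay under all WT CM libraries, against 12.8% of all genes in the table, and Mccc2, Pcca and Bckdk overlapped. Scaling by total counts moved the calls over all genes from 550 higher and 624 lower to 357 and 817, and left 8 genes called as lower.

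The number of genes called between the media depended on the test and on single libraries. DESeq2 called 4 of the 9 as lower (Bcat2, Bckdhb, Dbt and Mccc1), and 786 genes in all, of which 415 were lower. Thinning all libraries to the smallest left 5 of the 9 and 982 in all, of which 527 were lower. The fit on full libraries called 1174 in all, of which 624 were lower. The authors' deposited table called 4 of the 10 lower, and 3.55% of all genes. Fits that left out 1 library called between 756 and 1200 genes in all. Without WT CM replicate 3, the library that stood apart, 5 of the 9 were called: Bckdha, Ivd and Pcca lost their calls (edgeR adjusted p = 0.129, 0.164 and 0.12). Pcca was also lost without WT CM replicate 1 or without KO CM replicates 1 or 2 (adjusted p = 0.0762, 0.172 and 0.257). Pccb was lost without WT CM replicate 1 or KO CM replicate 3 (0.0563 and 0.201), Bckdha without KO CM replicate 1 (0.14) and Ivd without KO CM replicate 3 (0.294). Over all genes, 756 were called without KO CM replicate 3. Bcat2, Bckdhb, Dbt and Mccc1 were called in every one of these settings.

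**Figure D2:**
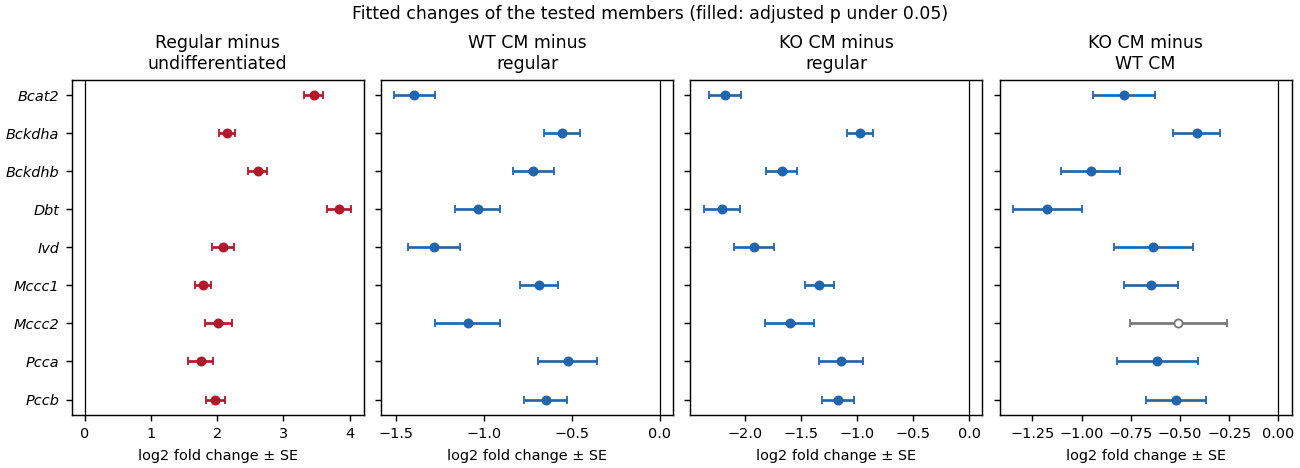
Fitted log2 fold change ± SE of the 9 tested genes (horizontal axes, scaled separately) in 4 comparisons, named above each panel, with filled points for an edgeR adjusted p under 0.05. All points lie right of 0 for regular against undifferentiated cells and left of 0 in the other panels, and Mccc2 in the last panel is the open point.

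Each CM group was also set against undifferentiated cells, the same 3 libraries in both comparisons. With WT CM all 9 tested genes were higher, where 48.6% of all genes were called, 27.9% as higher and 20.7% as lower, and the median log2 fold change was 1.32 beside 0.06 over all genes tested. Dbt (2.80 ± 0.20) and Bcat2 (2.06 ± 0.17) led, and Ivd (0.81 ± 0.18, edgeR adjusted p = 0.000292) and Mccc2 (0.92 ± 0.23, adjusted p = 0.000917) were lowest. With KO CM 7 of 9 were higher, where 43.7% of all genes were called, 26% as higher and 17.7% as lower, with a median of 0.80 beside 0.08 over all genes. Dbt (1.63 ± 0.25), Bcat2 (1.28 ± 0.20) and Bckdha (1.18 ± 0.14) led there. The genes not called were Ivd and Mccc2 (0.42 ± 0.28, adjusted p = 0.231). Scaling by total counts moved the median of all genes by -0.20 for WT CM and by -0.28 for KO CM. It changed the calls from 2612 higher and 1942 lower to 1904 and 3000 for WT CM, and from 2442 and 1660 to 1504 and 3034 for KO CM.

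The weakest of the 7 calls with KO CM were those of Mccc1 (0.45 ± 0.15, edgeR adjusted p = 0.0159) and Pcca (0.61 ± 0.24, adjusted p = 0.0347). Mccc1 was lost under total counts (0.17), DESeq2 (adjusted p = 0.0851), thinning (0.0764) and a fit of the 2 groups alone (0.0617), and without undifferentiated replicate 1 (0.142) or KO CM replicate 2 (0.0755). Pcca was lost without undifferentiated replicate 1, 2 or 3 (0.0787, 0.0715 and 0.112), regular replicate 1 or 2 (0.0525 and 0.0571) or KO CM replicate 3 (0.61), where its log2 fold change dropped to 0.20, and under RLE size factors (0.0531), total counts (0.259), no filter (0.06), DESeq2 (0.104) and the fit of 2 groups (0.0673).

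The genes kept different shares of the rise that they showed in regular cells. The share was taken as each CM library's CPM above the undifferentiated mean, in percent of the difference between the regular and undifferentiated means, a description added after the values were seen. The SD covers the 3 CM libraries only and leaves out the error of those means. For Pcca the regular libraries ran from 50.1 to 71.0 CPM, so its share is less certain than its SD. With WT CM it was 58.1 ± 8.03% for Pcca, 57.7 ± 9.97% for Bckdha, 53.3 ± 5.76% for Bckdhb and 51.9 ± 5.71% for Pccb. It was lower for Bcat2 (31.8 ± 4.48%), Mccc2 (27.7 ± 14.9%) and Ivd (22.1 ± 8.46%), whose libraries lay between 11.8% and 41.3%, against 46.4% to 69.2% for the other 4 genes. Dbt and Mccc1 lay between, at 44.8 ± 1.52% and 46.6 ± 2.80%. With KO CM the share was 36.1 ± 10.4% for Bckdha, 26.8 ± 12.6% for Pccb and 20.7 ± 25.7% for Pcca, and between 10.6% and 17.7% on average for Bcat2, Bckdhb, Dbt, Mccc1 and Mccc2. For Ivd it was 4.48 ± 8.29%, with the libraries from -5.09% to 9.68%. Bckdk, on its few UMIs, had 15.1 ± 17.3% with WT CM and -5.13 ± 40.2% with KO CM.

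The summed level of the 10 genes was set against that of Pparg, the nuclear receptor that drives adipogenesis, also after the values were seen. Undifferentiated libraries held 5.98, 6.98 and 6.97 member UMIs per Pparg UMI, on 45 to 63 Pparg UMIs per library. Regular libraries held 1.46, 1.43 and 1.32, WT CM libraries 1.40, 1.19 and 1.204 and KO CM libraries 1.49, 1.37 and 1.48. The 3 differentiated groups lay close together, at 1.41 ± 0.072, 1.27 ± 0.116 and 1.44 ± 0.0661, although the summed level itself differed 2.89-fold between regular and KO CM cells. For Bcat2 alone the ratio was 0.23 ± 0.0271 in regular cells, 0.143 ± 0.017 with WT CM and 0.151 ± 0.0209 with KO CM, and no CM library reached a regular library. Both ratios depend on the marker chosen, since adipocyte markers fell by unlike amounts. From regular to KO CM cells mean Pparg went from 800 to 269 CPM, Slc2a4 from 274 to 31.3 and Lpl from 820 to 449. Ratios to markers other than Pparg were not tested.

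**Figure D3:**
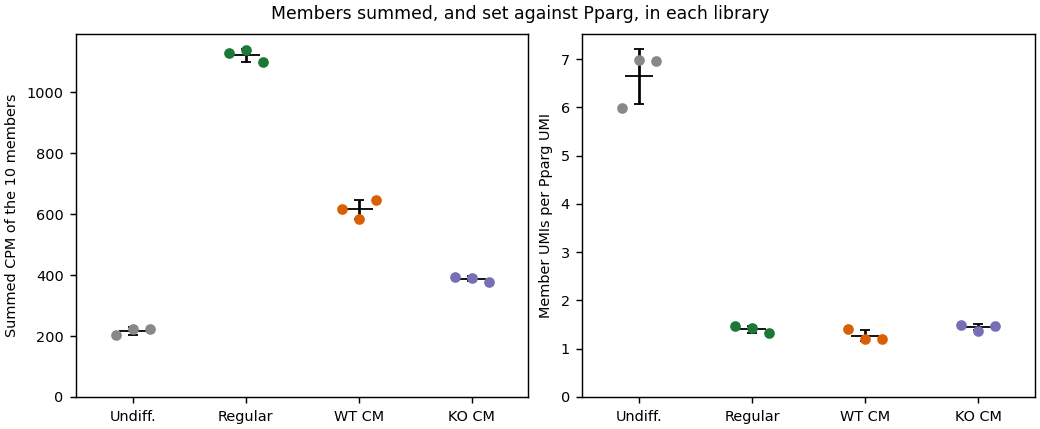
Left, summed CPM of the 10 genes in each library, and right, their UMIs per Pparg UMI (vertical axes from 0), by group, with a point for each library and bars for the mean ± SD of 3 libraries. The sums of the 4 groups are separate, while the ratios of the 3 differentiated groups lie between 1.19 and 1.49 and those of undifferentiated cells between 5.98 and 6.98.

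The list for the wider pathway covered transport, the other enzymes of each arm, their cofactor enzymes, the phosphatase gene Ppm1k and the transcription factor gene Klf15. Of its 31 symbols 26 were in the table, and all 26 were tested. In regular against undifferentiated cells 21 rose and 3 fell, with a median of 1.21, where 29.6% of all genes were higher and 28% lower (median -0.01). Aldh6a1, methylmalonate-semialdehyde dehydrogenase of the valine arm, rose from 18.1 ± 5.93 to 382 ± 36.7 CPM (4.35 ± 0.15, edgeR adjusted p = 2.23e-25). Klf15 and the amino acid transporter gene Slc43a1 rose from 1 and 3 UMIs in all undifferentiated libraries, 1120-fold and 26.9-fold on pooled counts, with exact 95% intervals of 200 to 44100 and 8.88 to 133. The genes that fell were Bcat1 and both chains of the plasma membrane leucine transporter, Slc7a5 (225 ± 18.1 to 101 ± 8.04 CPM) and Slc3a2 (553 ± 28.3 to 298 ± 7.87 CPM). Against undifferentiated cells 17 of the 26 rose and 3 fell with WT CM, where 27.9% of all genes were higher and 20.7% lower. With KO CM 12 rose and 3 fell, where 26% and 17.7% did, with Klf15, Slc43a1 and Aldh6a1 highest and Slc7a5, Bcat1 and Slc3a2 lowest in both.

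With WT CM against regular cells 15 of the 26 fell and 1 rose (median -0.58), where 15.4% of all genes were lower and 17.2% higher (median 0.01). With KO CM 17 fell and 1 rose (median -0.79), where 21% were lower and 22.2% higher (median 0.00). The falls were largest for Klf15, Hibch and Aldh6a1 in both. Hibch, the hydrolase of the valine arm, went from 161 ± 6.68 CPM in regular cells to 80.4 ± 2.70 with WT CM and 52.5 ± 10.3 with KO CM (-1.01 ± 0.12 and -1.65 ± 0.14). Aldh6a1 fell to 191 ± 27.4 and 116 ± 9.41 CPM (-0.99 ± 0.11 and -1.71 ± 0.12). The gene that rose was Slc43a1, from 14.9 ± 4.37 CPM to 35.6 ± 6.94 with WT CM and 34.2 ± 7.34 with KO CM (edgeR adjusted p = 2.6e-05 and 0.00019). Between the media 9 of the 26 fell with KO CM and none rose, where 6.65% of all genes were lower and 5.86% higher, led by Klf15, Aldh6a1 (-0.72 ± 0.12) and Dld (-0.64 ± 0.12).

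Auh, the hydratase that follows methylcrotonyl-CoA carboxylase in the leucine arm, was singled out after its values were seen. It was at 14.7, 19.0 and 23.0 CPM in undifferentiated, 81.9, 74.1 and 74.8 CPM in regular, 88.9, 78.2 and 79.0 CPM in WT CM and 85.8, 66.5 and 78.9 CPM in KO CM libraries. The differentiated groups overlapped throughout. Auh rose 4-fold on regular differentiation, beside 4.26-fold for Ivd and 4.05-fold for Mccc2. Its differences from regular cells were 0.10 ± 0.13 with WT CM and 0.02 ± 0.14 with KO CM (edgeR adjusted p = 0.611 and 0.926). Auh was not alone in this. Btd of the same list, which rose 1.78-fold on regular differentiation, differed by -0.06 ± 0.15 and -0.01 ± 0.16 (adjusted p = 0.798 and 0.959). Slc3a2, which fell on differentiation, differed by -0.05 ± 0.09 and 0.09 ± 0.09 (adjusted p = 0.686 and 0.46). Slc7a5, in contrast to the enzymes, was lower at each step, at 60.8 ± 8.33 CPM with WT CM and 39.6 ± 4.14 CPM with KO CM.

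**Figure D4:**
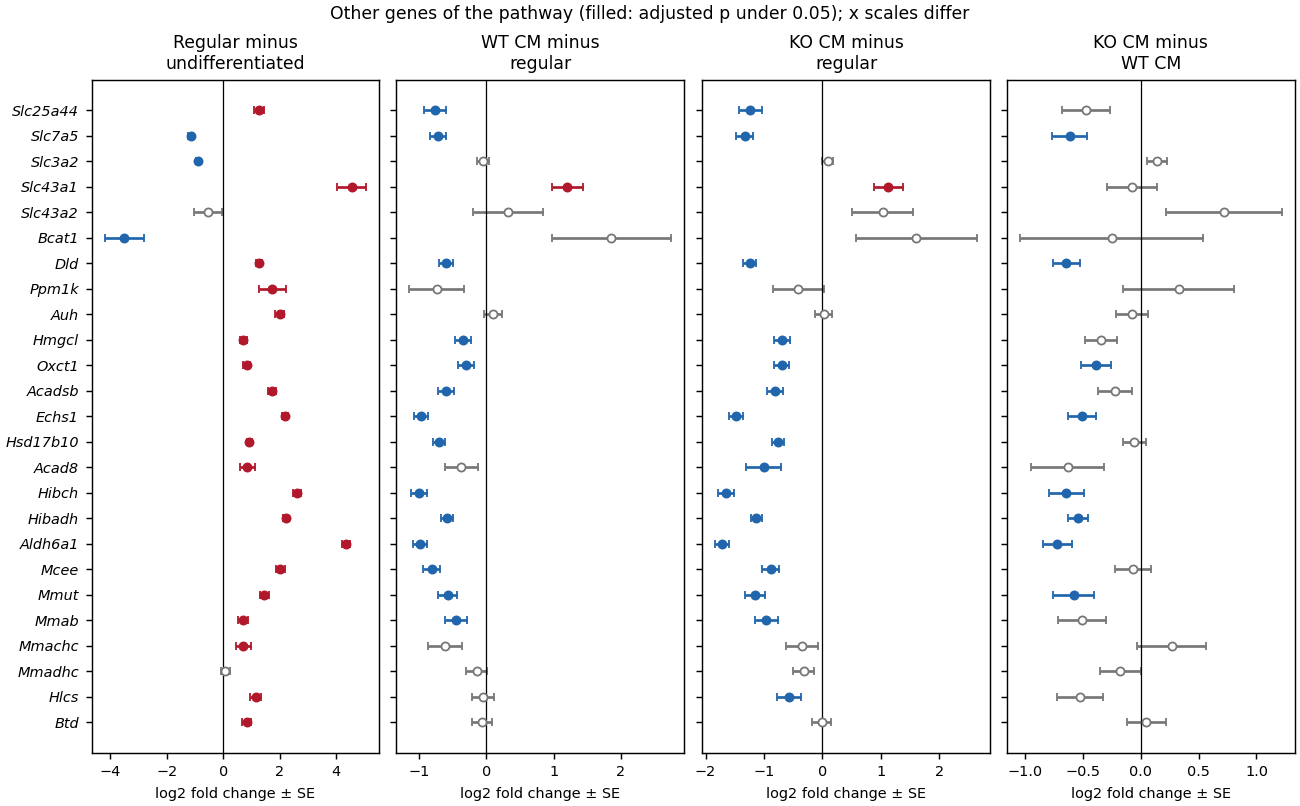
Fitted log2 fold change ± SE of 25 other genes of the pathway and its regulators (horizontal axes, scaled separately; Klf15 is left out for its range) in 4 comparisons, with filled points for an edgeR adjusted p under 0.05. Most enzymes lie right of 0 after regular differentiation and left of 0 in the other panels. Slc43a1 is higher in both CM groups than in regular cells, and Auh, Btd and Slc3a2 stay near 0 there.

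Among all other genes, those whose log2 level most resembled the mean standardized level of the 9 tested genes over the 12 libraries were Hadh (Pearson r = 0.996), Idh3b (0.995), Etfb (0.994), Alas1 (0.994) and Idh3a (0.993). Hadh encodes a dehydrogenase of fatty acid oxidation, Idh3a and Idh3b subunits of the mitochondrial isocitrate dehydrogenase, Etfb a subunit of an electron carrier, and Alas1 the entry enzyme of haem synthesis. Hadh was at 142, 549, 320.0 and 226 CPM on average in undifferentiated, regular, WT CM and KO CM cells. Over the 36 pairs of tested genes r lay between 0.778 and 0.982, with a median of 0.934. After the group means were taken out, the median was 0.047, with values from -0.784 to 0.768. The points share libraries and depth, and these values are a description.

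Ratios of partner subunits were taken within libraries, with no test. The log2 ratio of Bckdha to Bckdhb UMIs, with 0.5 added to each, was 0.77 ± 0.27 in undifferentiated, 0.31 ± 0.09 in regular, 0.44 ± 0.27 in WT CM and 1.00 ± 0.50 in KO CM cells. The KO CM libraries, at 0.43, 1.33 and 1.25, all lay above the regular libraries, at 0.26, 0.26 and 0.41, and overlapped those of the other groups. The ratio of Mccc1 to Mccc2 was between 1.36 and 1.83 on average and that of Pcca to Pccb between -0.90 and -0.59, and for both all 4 groups overlapped. The ratio of Bcat2 to Bcat1 moved from 1.13 ± 0.40 to 7.96 ± 1.79 on regular differentiation and stood at 5.03 ± 0.85 with WT CM and 4.60 ± 1.38 with KO CM, resting on 0 to 13 Bcat1 UMIs per library.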

How the data were processed

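Libraries of 3T3-L1 cells were made by MARS-seq from 30 ng of RNA per sample, per the labels' protocols. The method reads 3′ ends and counts molecular identifiers, so levels need no correction for gene length. The submitters' processing notes name cutadapt, HTSeq, DESeq2 and the build mm10, without versions. For the aligner, the annotation and the use of strand, no version or setting is named in the sources at hand. The deposited counts are raw UMI counts per gene and library, per the file headers. Log2 fold changes and p-values that the authors computed between groups stand beside them. Another 24 columns of values per sample were not used here. Every gene in the table has at least 6 counts in its highest library.

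The counts were analysed with edgeR 4.0.16 under R 4.3.3 (filterByExpr by group, 9378 genes kept, TMM, robust quasi-likelihood fit with 1 coefficient per group on all 12 libraries, Benjamini-Hochberg over all genes tested, threshold 0.05). SEs were derived from the F statistic. "Rose" and "fell" refer to genes past that threshold. CPM use TMM-scaled library sizes. On simulated counts with the KO CM against WT CM design (9067 genes), 43.3% of changes of 1.5-fold, 76.1% of 2-fold and 98.5% of 4-fold were recovered. The simulation gave all genes 1 common spread (coefficient of variation 9.38%) around means over all groups. Changed genes had more than 3 expected counts in the smallest library. It held no gene with its own spread and no library that stood apart, so recovery in the real libraries was not tested.

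The text names all 10 genes, together with Bcat1, Dld, Ppm1k and Klf15, up to 3 called genes with the highest and 3 with the lowest log2 fold change of the wider pathway in each comparison, and the 5 genes of most similar pattern. These members and lists were chosen with earlier results of these data known. Auh and Btd were named beyond this selection, after their values were seen. Listed symbols of the wider pathway outside the table were not analysed here. Gene positions are from GENCODE M21 on GRCm38, the build that mm10 names, and promoter sequences are from RefSeq. Same-numbered replicates of different groups did not deviate together (correlations from -0.0657 to 0.0553), so replicates were not paired. Alternatives were RLE and total-count scaling, no filter, DESeq2 1.42.0, fits of 2 groups, a replicate block, thinning and leaving out each library.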

Additional observations from a re-analysis of the deposited data

How the results depend on the processing

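Of the fitted changes of the 9 tested genes over all alternatives, those in regular against undifferentiated cells, in KO CM against regular cells and in WT CM against undifferentiated cells kept their direction and their side of the threshold in all 171 values each. Between WT CM and regular cells 169 of the values did so and 2 lost the call (Pcca). Between the media 153 did so and 18 lost the call, and against undifferentiated cells with KO CM 152 did so, 17 lost the call and 2 turned sign. Both were of Ivd, which was not called (-0.104 under total-count scaling and -0.0875 without undifferentiated replicate 1, in a range of -0.0875 to 0.392 when single libraries were left out). The number of the genes called between the media was 8, 4 with DESeq2, 5 after thinning and 5 to 8 when single libraries were left out. The number over all genes was 1174, 786 with DESeq2, 982 after thinning and 756 to 1200 when single libraries were left out. The cause was not tested. With the replicate block 8 of the 9 genes were called as lower between the media, where 640 of all genes were lower and 580 higher (624 and 550 without it). Against undifferentiated cells 7 were higher with KO CM, where 2438 of all genes were, and 9 with WT CM, where 2608 were. All 9 were higher in regular than in undifferentiated cells, where 2759 of all genes were. Against regular cells all 9 were lower with either medium, where 1444 of all genes were with WT CM and 1981 with KO CM. These numbers of the 9 genes were the same without the block. Depth limits the values of Bckdk, Ppm1k and Bcat1, which had 0 to 23 UMIs per library.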
